A study of Mus musculus with 32 samples.

Results

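The interleukin-1 (IL-1) family genes described here are 8 of the 42524 genes in the table of counts: the ligands Il1a, Il1b, Il18 and Il33, the antagonist Il1rn, and the receptor genes Il1r1, Il1rap and Il1rl1. They are a part of the family and were chosen by name, with earlier results of these data known. They were matched through their Ensembl identifiers, and all 8 were in the table. Spinal cord mRNA was sequenced from 32 mice, 4 in each of 8 groups. The mice were wildtype (WT) or carried the G93A transgene, were untreated or treated with OKN-007, a nitrone compound, and were 95 or 155 days old. The sample labels put the younger mice at 90 days, and the age of 95 days given in the study's text is used here. G93A mice carry a human SOD1 gene with the G93A mutation under its own human promoter and are a model of amyotrophic lateral sclerosis. The mice came from 1 transgenic line bred on the C57BL/6J background, and the WT mice were littermates on that background. The human transgene has no row in the table and was not analysed here, so the genotype labels were not checked against it. The dose of OKN-007 is not stated for the sequenced mice themselves. The study's outline of its cohorts places sacrifice at 95 and 155 days in those given its higher dose.

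IL-1 alpha and IL-1 beta are cytokines that bind the receptor encoded by Il1r1, which then recruits the accessory protein encoded by Il1rap and signals through the adaptor MyD88 and IRAK kinases to NF-kB. The product of Il1rn binds the same receptor without recruiting the accessory protein and so blocks both cytokines. IL-18 has its own receptor, and IL-33 binds the product of Il1rl1, known as ST2, which also pairs with the accessory protein. IL-1 beta and IL-18 are made as precursors that caspase-1 cleaves, whereas IL-33 is stored in nuclei and released by damaged cells. In the central nervous system microglia are a known source of IL-1 alpha and IL-1 beta, and IL-33 is known to be made by oligodendrocytes and astrocytes.

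Several members lie close together in the genome. In GENCODE M21 on the mouse build GRCm38, Il1a (chr2:129299610-129309972, minus strand) and Il1b (chr2:129364570-129371139, minus strand) are 54.6 kb apart with 0 protein-coding genes between them. The antagonist gene Il1rn (chr2:24336853-24351494, plus strand) is on the same chromosome but 104948.1 kb away from Il1a. Il1r1 (chr1:40225080-40317257) and Il1rl1 (chr1:40429570-40465415), both on the plus strand, are 112.3 kb apart with 1 protein-coding gene between them. The others are on separate chromosomes: Il1rap at chr16:26581704-26730117, Il18 at chr9:50554827-50581840 and Il33 at chr19:29925114-29960718, all on the plus strand. Exons of Il1a, Il1b and Il1rap overlap exons of genes on the opposite strand (Gm14023, Il1bos and Gm20319). The libraries were stranded, but the strand setting of the counting is not given in the sources used here, so reads of these pairs cannot be told apart with certainty.

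The 150 bases before the transcription start of 4 members are shown because Il1a, Il1b and Il1rn rose together in G93A mice at 155 days, whereas Il1rap differed least among the receptor genes. The sequences are from RefSeq on GRCm38.p6, 5′ to 3′ on the strand of the gene, with matches to the motifs searched in capitals. They lie at chr2:129309973-129310122 (minus strand) for Il1a, at chr2:129371140-129371289 (minus strand) for Il1b, at chr2:24336710-24336859 (plus strand) for the first RefSeq start of Il1rn, and at chr16:26581555-26581704 (plus strand) for Il1rap.
Il1a: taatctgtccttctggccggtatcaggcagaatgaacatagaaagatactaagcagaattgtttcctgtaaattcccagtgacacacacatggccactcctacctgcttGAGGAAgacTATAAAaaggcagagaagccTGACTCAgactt
Il1b: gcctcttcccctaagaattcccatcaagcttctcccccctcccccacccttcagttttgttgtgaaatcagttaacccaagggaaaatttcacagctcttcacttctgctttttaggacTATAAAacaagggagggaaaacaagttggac
Il1rn: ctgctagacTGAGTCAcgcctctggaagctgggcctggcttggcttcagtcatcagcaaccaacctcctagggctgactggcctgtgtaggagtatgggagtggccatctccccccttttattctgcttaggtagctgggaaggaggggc
Il1rap: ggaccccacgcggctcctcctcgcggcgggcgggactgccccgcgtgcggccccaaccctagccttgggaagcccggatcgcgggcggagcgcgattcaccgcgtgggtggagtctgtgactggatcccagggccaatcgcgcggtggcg

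The motifs were searched on both strands of the 250 bases before each start, and their positions are counted in bases upstream of the start. Il1a and Il1b both held the TATA box letters TATAAA, at 32 to 27 bases in Il1a and at 31 to 26 bases in Il1b. These letters were present in 12.4% of all 32851 RefSeq promoters. Il1a also held the PU.1 core GAGGAA at 41 to 36 bases, which 23.3% of promoters held, and the AP-1 motif TGANTCA at 12 to 6 bases, which 6.7% held. In Il1rn, an AP-1 match lay at 141 to 135 bases from the first start. RefSeq starts 2 and 3 of Il1rn held no match. No match to these motifs, to the kB motif (7.3% of promoters), to the C/EBP motif TTNNGCAA (9.6%) or to the STAT motif TTCNNNGAA (7.0%) was in the window of Il1rap. Il18, which like Il1rap did not pass in untreated mice at 155 days, held the TATA letters on the other strand at 175 to 170 bases. Il33 held these letters at 203 to 198 bases from its first start. From its second start they lay at 29 to 24 bases, with a C/EBP match at 85 to 78 bases. Il1r1 held a C/EBP match at 133 to 126 bases from its first start and a kB match at 232 to 223 bases from its second. A C/EBP match of Il1rl1 lay at 34 to 27 bases from its first start. The genes shown were picked by their changes, so the letters set no contrast between members that rose and the others. A match is a description of the letters and not of binding.

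Libraries held from 19701722 to 30138257 reads assigned to genes (median 26658755). Levels are given in CPM, the count scaled to 1e+06 reads of a library whose size was adjusted by the TMM method. In the smallest library, 3 counts were worth 0.152 CPM, which is taken as the floor of detection and covers counting error only. Il1a, Il1b, Il1rn and Il1rl1 were close to this floor in WT mice, and the precision of their values is limited by counts. Markers of liver, a tissue outside the spinal cord, summed to between 75.6 and 186 CPM in 3 libraries and to at most 41.1 CPM in the others. The 3 libraries were WT OKN-007 replicate 6 at 95 days, and G93A untreated replicate 12 and G93A OKN-007 replicate 15 at 155 days. Hox genes of the caudal cord were also uneven: at 155 days their summed level ranged from 89.9 to 157 CPM in WT untreated mice and from 4.40 to 81.3 CPM in G93A untreated mice. The labels name no batch, and nothing in them says whether the 2 ages were sequenced together, so age and any such batch cannot be told apart.

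Per kilobase of exon, Il33 was the most abundant member in every group and Il18 the second. The length is that of all annotated exons of a gene merged, from 1.031 kb for Il18 to 11.36 kb for Il1rap, and the order depends on it. In WT untreated mice at 155 days, the level per length was 43.5 CPM per kb for Il33, 16.8 for Il18, 4.31 for Il1rap, 0.651 for Il1r1 and 0.212 for Il1a, and the ranges of these neighbours did not overlap. Il1rl1, Il1b and Il1rn followed at 0.0527, 0.0475 and 0.00347 CPM per kb, and the ranges of neighbours overlapped. The first 5 places were held by the same genes in the same order in all 8 groups. In G93A untreated mice at 155 days the lower places changed to Il1b (0.412 CPM per kb), Il1rn (0.355) and Il1rl1 (0.282), where again the ranges of neighbours overlapped. The accessory receptor gene was therefore more abundant per length than the ligand-binding receptor gene in each group, by mean levels of 4.53 against 2.98 CPM per kb in G93A untreated mice at 155 days.

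**Figure D1:**
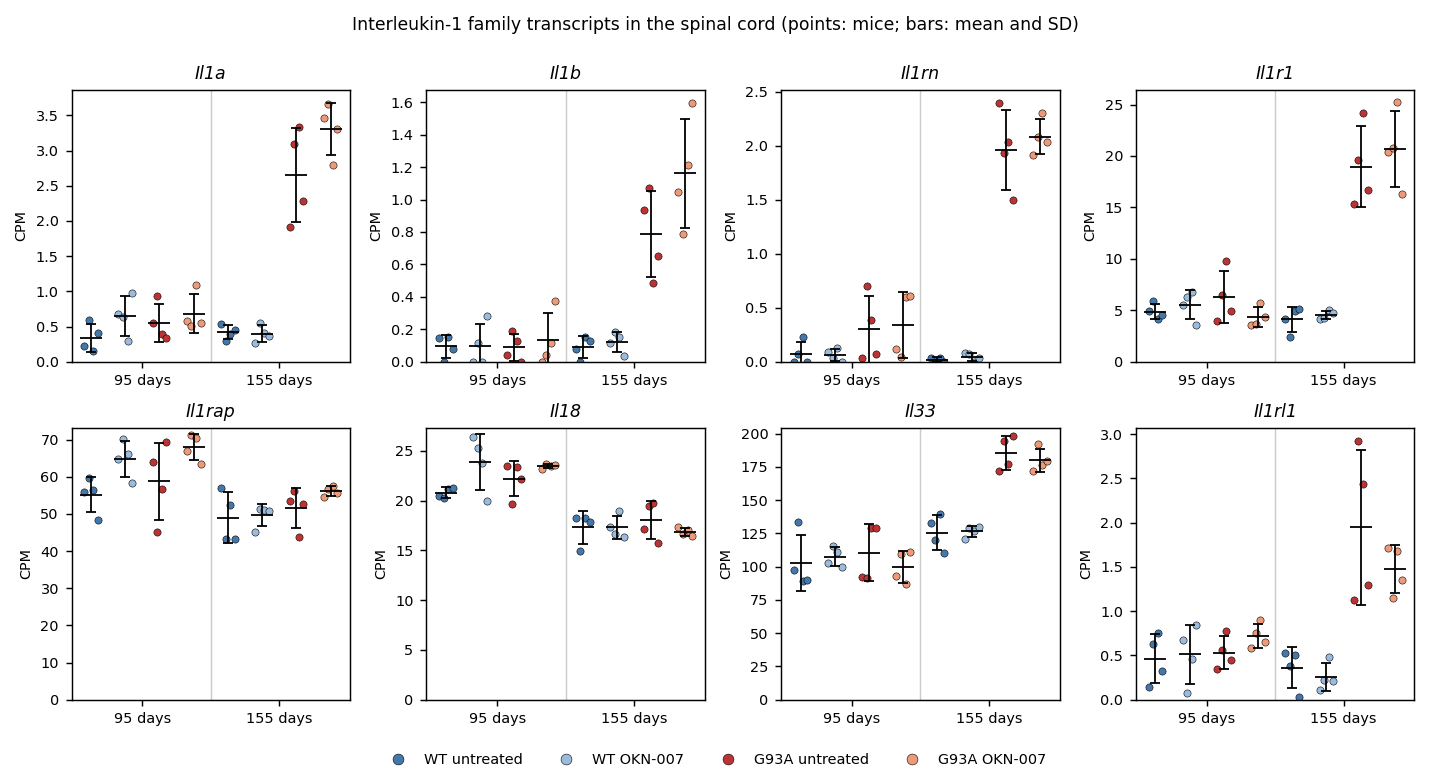
Level of each of the 8 genes in CPM (vertical axes from 0, a separate scale for each gene) in every mouse, by age and group; points are mice, horizontal bars the group mean and vertical bars the SD (n = 4). At 155 days the G93A points of Il1a, Il1b, Il1rn, Il1r1, Il33 and Il1rl1 lie above the WT points of the same treatment, while those of Il18 and of untreated Il1rap overlap.

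The comparison of untreated G93A with untreated WT mice at 155 days asks which members differ late in the disease. The ligands Il1a, Il1b and Il33, the antagonist Il1rn and the receptor genes Il1r1 and Il1rl1 rose, while Il1rap and Il18 did not pass the test. By edgeR's quasi-likelihood test with Benjamini-Hochberg adjustment over all genes, 6 of 8 members were higher at an adjusted p under 0.05 and 0 were lower. Of the 18675 genes tested, 39.5% passed in either direction and 21.3% were higher. Il1b and Il1rn had at most 5 and 2 counts in any WT mouse at 155 days. They passed the filter on low counts only through G93A mice, so they could hardly be counted as lower. The same holds for the later counts that set G93A mice of 155 days against WT mice. The same 6 members had groups that did not overlap, as did 15.6% of all genes tested with G93A higher. The median log2 fold change was 2.35 over the 8 members and 0.00015 over all genes tested. The members' median rests on Il1r1 and Il1rl1 and would be the same with Il1rn at the lower limit of its ratio given next.

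Il1rn had the largest fold change. There were 1, 0, 1 and 0 counts in the 4 WT untreated mice and 64, 47, 50 and 46 counts in the 4 G93A untreated mice. The antagonist was thus close to absent from WT libraries and present in each G93A library, at 1.96 ± 0.369 CPM (SD, n = 4) against 0.0192 ± 0.0222 CPM. Over the groups, 207 counts stood against 2, a ratio of 103 after scaling for library size, with a 95% counting interval of 28.2 to 858. The fitted log2 fold change of 6.43 (SE 0.47, adjusted p = 3.02e-09) depends on the prior count. Its SE comes from the test statistic and gives an interval of 43.9- to 170-fold. That is narrower than the interval from counting alone, so this SE understates the error. Counts on the gene do not separate its secreted and intracellular forms.

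The agonists of the same receptor rose less. Il1a had 14, 7, 10 and 14 counts in WT untreated and 51, 75, 82 and 70 counts in G93A untreated mice, or 0.419 ± 0.0999 against 2.65 ± 0.670 CPM (SD, n = 4). Its log2 fold change was 2.68 (SE 0.24, adjusted p = 7.14e-08), and the lowest G93A mouse was above the highest WT mouse. Il1b had 2, 0, 4 and 4 counts in WT untreated and 25, 26, 12 and 20 counts in G93A untreated mice, or 0.0906 ± 0.0689 against 0.786 ± 0.265 CPM. The log2 fold change of Il1b was 3.05 (SE 0.49, adjusted p = 7.49e-05). The WT level of Il1b is below the floor, and its ratio of 83 to 10 counts was 8.28 with a counting interval of 4.28 to 17.9. On the opposite strand, Gm14023 had means of 0.391 ± 0.0647 CPM in WT and 0.373 ± 0.150 CPM in G93A mice, and Il1bos had means of 0.0605 ± 0.0700 and 0.142 ± 0.118 CPM (SD, n = 4). Differences of these antisense genes were not tested.

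Taking the antagonist against both agonists, the ratio of Il1rn to the sum of Il1a and Il1b, each per kilobase, ranged from 0 to 0.0252 in WT untreated mice and from 0.165 to 0.297 in G93A untreated mice at 155 days. The agonist genes together therefore remained above the antagonist gene in each G93A mouse at the level of RNA per length, and the ratios of the WT mice rest on 2 counts of Il1rn. The size of the ratio depends on the merged exon lengths, which were 5.535 kb for Il1rn, 1.974 kb for Il1a and 1.907 kb for Il1b. Without division by length, the means in these G93A mice were 1.96 CPM for Il1rn, 2.65 CPM for Il1a and 0.786 CPM for Il1b.

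Among the receptor genes, Il1r1, which encodes the receptor that binds both agonists and the antagonist, was at 4.15, 2.43, 4.90 and 5.10 CPM in WT untreated and at 15.3, 19.6, 24.2 and 16.7 CPM in G93A untreated mice. Its log2 fold change was 2.23 (SE 0.18, adjusted p = 1.86e-08), a 4.69-fold difference with a lower limit of 3.59-fold. Its partner Il1rap was at 57.0, 43.3, 52.5 and 43.1 CPM in WT and 53.4, 56.2, 43.7 and 52.7 CPM in G93A mice, which overlapped. The interval of its log2 difference was -0.06 to 0.31, with an adjusted p of 0.292. The gene for the binding receptor thus rose and the gene for the shared accessory protein did not pass the test in the same libraries.

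Il33 was at 133, 120, 140 and 110 CPM in WT untreated mice and at 172, 195, 177 and 198 CPM in G93A untreated mice. The log2 fold change of this alarmin was 0.61 (SE 0.072, adjusted p = 1.85e-06), or 1.53-fold, and the groups did not overlap. Its receptor gene Il1rl1 was at 0.533, 0.383, 0.505 and 0.0327 CPM in WT and 1.12, 2.92, 2.44 and 1.3 CPM in G93A mice. The log2 fold change of Il1rl1 was 2.47 (SE 0.46, adjusted p = 0.000311), with a 95% interval of 1.51 to 3.44. Membrane-bound and soluble forms of this receptor come from 1 gene and were not separated. Il18, whose product is cleaved by caspase-1, was at 14.9 to 18.3 CPM in WT and 15.8 to 19.8 CPM in G93A mice, and the interval of its log2 difference was -0.08 to 0.28 (adjusted p = 0.363).

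Markers of several cell types moved with these genes, in a comparison where 21.3% of all genes tested were higher and 18.2% lower. The 9 microglial markers, which include Aif1, Csf1r, Itgam and C1qa, were all higher in G93A untreated mice, and their summed level was 352 to 426 CPM in WT and 1398 to 2465 CPM in G93A mice. Astrocyte markers were higher for 6 of 8 genes, with sums of 6545 to 7077 CPM in WT and 15040 to 18930 CPM in G93A mice. Most of that difference was Gfap, at 2196 CPM in WT and 11260 CPM in G93A mice on average, and the median log2 change of the 8 genes was 0.43. All 4 neuronal markers and 5 of 6 motor neuron markers were lower. For endothelium, 0 of 6 markers passed, and for oligodendrocytes 2 of 7 were higher (Mag and Cldn11), which is near the share of all genes. Of the T cell markers, 3 of 6 could be tested and 2 were higher (Cd3g and Cd8a), with sums of 1.90 to 3.23 CPM in WT and 3.64 to 4.77 CPM in G93A mice. Cd3g and Cd8a were under the floor in WT mice, with means of 0.110 and 0.0588 CPM, so they could hardly be counted as lower. The other testable gene, Trac, had means of 2.07 CPM in WT and 2.77 CPM in G93A mice and did not pass (adjusted p = 0.0807 by edgeR). Neutrophil markers summed to 0.228 to 2.68 CPM in WT and 0.772 to 1.17 CPM in G93A mice, with 0 of 2 testable genes passed. The mast cell genes Cpa3, Tpsb2 and Mcpt4, of a cell type known to express Il1rl1, summed to at most 0.0654 CPM in either group. In a whole piece of tissue, more cells of a type and more RNA per cell cannot be told apart, and the part of these cell types in the members' changes was not tested.

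In mice treated with OKN-007, the same comparison at 155 days was made between other mice, and 7 of 8 members were higher in G93A, where 23.3% of all genes were higher. The same 7 had groups that did not overlap, as did 20.2% of all genes with G93A higher. Il1rn had 2, 2, 0 and 1 counts in WT and 57, 58, 70 and 51 counts in G93A mice, a ratio of 44.9 with a counting interval of 19.0 to 140. The fitted log2 fold changes were 5.42 (SE 0.40) for Il1rn, 3.11 (SE 0.24) for Il1a, 3.28 (SE 0.45) for Il1b, 2.25 (SE 0.18) for Il1r1, 0.58 (SE 0.072) for Il33 and 2.56 (SE 0.48) for Il1rl1. Their adjusted p-values ranged from 3.55e-09 for Il1rn to 0.000310 for Il1rl1. Il18 differed by 0.04 on the log2 scale (adjusted p = 0.774).

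The seventh member was Il1rap, at 45.2, 51.4, 51.1 and 50.7 CPM in WT OKN-007 and 54.5, 56.7, 57.6 and 55.6 CPM in G93A OKN-007 mice. Its log2 fold change was 0.25 (SE 0.088, adjusted p = 0.0270), or 1.19-fold. The call was lost with the liver-marker libraries left out (adjusted p = 0.102), without WT OKN-007 replicate 5 (0.0872), G93A OKN-007 replicate 14 (0.0723) or replicate 15 (0.0740), with no filter on low counts (0.0541), with all 32 mice in 1 fit (0.0749), and when a score of the caudal Hox genes entered the fit (log2 0.099, adjusted p = 0.527). Caudal Hox genes summed to 130 to 176 CPM in these WT mice and 22.6 to 66.8 CPM in these G93A mice. With the G93A change averaged over both treatments, 7 of 8 members were higher, against 28.8% of all genes, and Il1rap differed by 0.19 (SE 0.062, adjusted p = 0.0160). That call of Il1rap was lost with the Hox score in the fit (log2 0.029, adjusted p = 0.834) and with the liver-marker libraries left out (adjusted p = 0.0601).

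At 95 days, the age at which the study places the approximate onset, 0 of 7 testable members passed in either treatment. The same was true of 0 of 18899 genes (0%) in untreated mice and 0 (0%) in OKN-007 mice. Averaged over treatments, 0 of 7 members passed where 0.0265% of genes did. At an unadjusted p under 0.05, edgeR gave 0, 1 and 1 members in these comparisons, the 1 being Il1rn both times, where 5.96%, 3.95% and 6.61% of all genes were under it. DESeq2 and edgeR's likelihood ratio test also called 0 members in each. Il1b had at most 11 counts in any mouse at this age and was removed by the filter on low counts. Il1rn had at most 6 counts in any WT mouse and passed that filter only through G93A mice.

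Il1rn was the member with the largest difference at 95 days. It had 0, 2, 6 and 0 counts in WT untreated and 1, 15, 9 and 2 counts in G93A untreated mice, and 2, 1, 3 and 0 counts in WT OKN-007 and 3, 1, 16 and 18 counts in G93A OKN-007 mice. In each G93A group, a pair of mice stood above every WT mouse and the others lay among the WT mice. These 4 mice also had the highest microglial marker sums of their groups, at 594 and 618 CPM in untreated and 616 and 591 CPM in OKN-007 mice. Both such mice of the OKN-007 group had caudal Hox sums of 79.4 and 84.8 CPM, against 7.72 and 6.32 CPM in the other mice of that group, and the part of these differences in the counts of Il1rn was not tested. The log2 fold change averaged over treatments was 2.12 (SE 0.75, adjusted p = 0.564 by edgeR), and it was 1.88 (SE 1.04) in untreated and 2.36 (SE 1.06) in OKN-007 mice. Without 1 mouse the averaged value ranged from 1.69 (without G93A untreated replicate 10) to 2.83 (without WT untreated replicate 3), and the untreated value from 1.02 to 3.30 without the same mice. Il1a differed by 0.69 (SE 0.48) and Il1r1 by 0.39 (SE 0.25) in untreated mice, with adjusted p-values of 0.875 and 0.864. Microglial markers summed to 416 to 480 CPM in WT untreated and 418 to 618 CPM in G93A untreated mice at this age, and 0 of 9 passed. Il1b counts were 4, 0, 4 and 2 in WT untreated and 1, 4, 3 and 0 in G93A untreated mice. With no filter on low counts, its log2 difference was -0.17 (95% interval -2.37 to 2.04, adjusted p = 1). That interval lies below the estimate of 3.05 at 155 days but overlaps the 95% interval of that estimate, 2.025 to 4.08. With so few counts the interval at 95 days can be too narrow, so it does not exclude a change of that size.

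**Figure D2:**
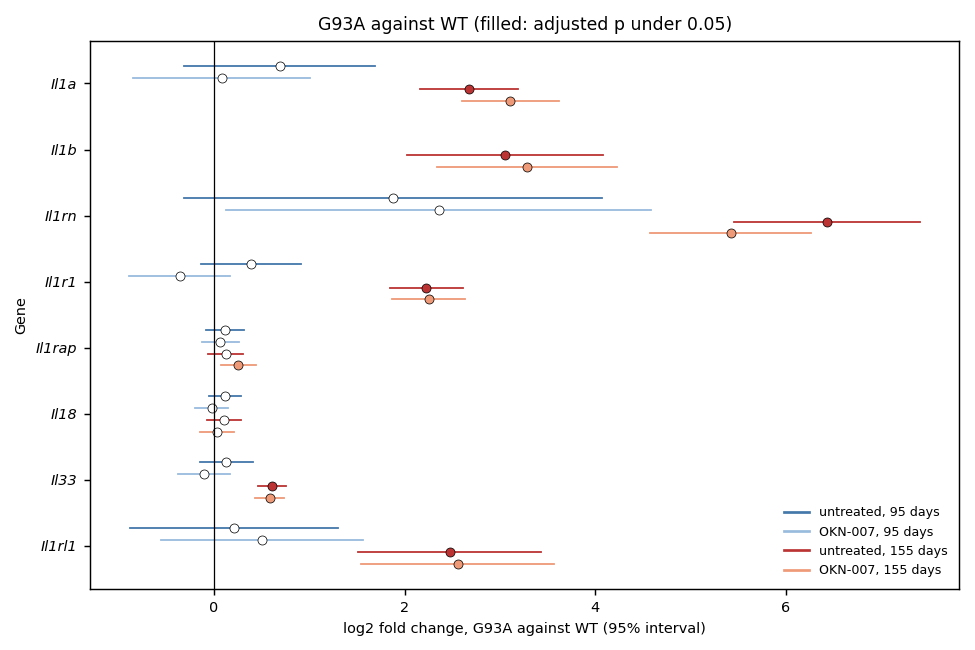
Log2 fold change of G93A against WT mice for each gene (horizontal axis), by treatment and age; points are edgeR estimates, lines their 95% intervals, and filled points passed an adjusted p of 0.05. Points of 155 days lie right of those of 95 days for Il1a, Il1rn, Il1r1, Il33 and Il1rl1, and Il1b has no estimate at 95 days.

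Whether the G93A change itself differed between the ages was tested in 1 fit of all 32 mice. In untreated mice 5 of 8 members had a larger change at 155 days, against 12.9% of 19829 genes. The change grew by 1.99 on the log2 scale for Il1a (SE 0.53, adjusted p = 0.00662), 4.55 for Il1rn (SE 1.46, 0.0247), 1.84 for Il1r1 (SE 0.32, 8.44e-05), 0.47 for Il33 (SE 0.16, 0.0347) and 2.26 for Il1rl1 (SE 0.73, 0.0260). The difference of Il1b was 3.22 (SE 1.26) and missed the threshold (adjusted p = 0.0675), but passed by DESeq2 (0.0238), by the likelihood ratio test (0.0166), without WT untreated replicate 2 (0.0313) and without G93A untreated replicate 10 (0.0414) at 95 days. The count fell to 3 without WT untreated replicate 3 or G93A untreated replicate 9 at 95 days, without G93A untreated replicate 10 at 155 days, or with the caudal Hox covariate. Without that WT mouse, which held 6 of the 8 WT counts at 95 days, Il1rn was at 3.14 (adjusted p = 0.326). The call of Il33 was lost without any 1 of 7 mice and that of Il1rl1 without any 1 of 5. Il33 also lost it with no filter on low counts (adjusted p = 0.0549), with the Hox covariate (0.0747) and with the liver-marker libraries left out (0.0635). Il1rl1 also lost it with the Hox covariate (0.110).

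In OKN-007 mice 4 of 8 members passed, against 13% of genes. These were Il1a at 3.0 (SE 0.49, adjusted p = 3.39e-05), Il1r1 at 2.58 (SE 0.32, 4.19e-07), Il33 at 0.65 (SE 0.16, 0.00324) and Il1rl1 at 2.02 (SE 0.74, 0.0460). Il1rl1 lost its call without any 1 of 12 mice of the 16, with no filter on low counts (0.0665) and with the Hox covariate (0.173). It thus rests close to the threshold. Il1b (2.77, SE 1.21, adjusted p = 0.0973) and Il1rn (3.03, SE 1.40, 0.121) missed it by edgeR's quasi-likelihood test. Both passed by DESeq2 (0.0394 and 0.0429) and by the likelihood ratio test (0.0317 and 0.0480), which called 6 of 8 members. The difference of Il1b was 4.10 (adjusted p = 0.0228) without G93A OKN-007 replicate 16 at 95 days and 1.62 (0.507) without WT OKN-007 replicate 8 at 95 days. Il1a and Il1r1 passed with every mouse left out in turn in both treatments. Il1rap and Il18 had differences between ages of at most 0.15 on the log2 scale in either treatment, with adjusted p-values of at least 0.458.

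Within untreated G93A mice, 6 of 8 members were higher at 155 than at 95 days, against 21% of genes, and 1 was lower, against 12.8%. Il1b passed the filter on low counts only through G93A mice of 155 days. Those higher were Il1a (log2 2.29, SE 0.33), Il1b (3.20, SE 0.76), Il1rn (2.79, SE 0.60), Il1r1 (1.62, SE 0.22), Il33 (0.77, SE 0.11) and Il1rl1 (1.88, SE 0.48), with adjusted p-values from 8.56e-07 to 0.00281. The member that fell was Il18, by 0.28 (SE 0.080, adjusted p = 0.00694). Within untreated WT mice, 1 of 8 passed, again Il18, which fell by 0.25 (SE 0.080, adjusted p = 0.0200). Oligodendrocyte marker sums were 32950 to 39980 CPM at 95 days and 21320 to 23840 CPM at 155 days in these WT mice, and astrocyte marker sums were 8003 to 9039 CPM and 6545 to 7077 CPM. In untreated G93A mice, oligodendrocyte sums were 28120 to 36090 CPM at 95 days and 20720 to 25230 CPM at 155 days. Astrocyte sums went the other way there, from 8388 to 10430 CPM up to 15040 to 18930 CPM. The part of these cell types in the fall of Il18 was not tested. Lower calls made up 9.61% of genes in untreated WT mice, and groups that did not overlap with the older mice lower made up 8.11%.

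The level of Il18 was 20.5, 20.3, 21.2 and 21.3 CPM in WT untreated mice at 95 days and 18.3, 14.9, 18.3 and 17.8 CPM at 155 days, so the ages did not overlap. In G93A untreated mice the levels were 23.5, 19.7, 23.4 and 22.2 CPM at 95 days and 17.1, 19.4, 19.8 and 15.8 CPM at 155 days, where they overlapped. OKN-007 mice were at 23.9 ± 2.83 CPM (WT) and 23.5 ± 0.227 CPM (G93A) at 95 days and at 17.3 ± 1.18 and 16.9 ± 0.372 CPM at 155 days (SD, n = 4). In untreated WT mice the call was lost without replicate 3 at 95 days (adjusted p = 0.0542), without replicate 2 at 155 days (0.0792) and with no filter on low counts (0.0708). Il33 in untreated WT mice was 0.30 higher at 155 days (SE 0.11, adjusted p = 0.0509), with groups that overlapped.

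Treatment with OKN-007 asks whether the compound changes these levels. In G93A mice at 155 days, 0 of 8 members passed by edgeR's quasi-likelihood test, and 0 did at an unadjusted p under 0.05, by DESeq2 or by the likelihood ratio test. Of all genes 0% passed, and 4.04% were under an unadjusted p of 0.05. The largest differences were 0.57 for Il1b (SE 0.35, interval -0.17 to 1.3), -0.37 for Il1rl1 (SE 0.39, -1.19 to 0.45) and 0.33 for Il1a (SE 0.20, -0.09 to 0.75). Il1b had 25, 26, 12 and 20 counts without and 31, 22, 37 and 40 counts with OKN-007, so the groups overlapped. The narrowest intervals were those of Il33 (-0.19 to 0.11) and Il18 (-0.27 to 0.09). Il1rn differed by 0.09 (-0.42 to 0.61), Il1r1 by 0.14 (-0.21 to 0.49) and Il1rap by 0.13 (-0.05 to 0.31). All 8 adjusted p-values were 0.9996, which does not show that the levels were alike.

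In WT mice at 155 days, 0 of 8 members passed, 0 did at an unadjusted p under 0.05, and 0% of all genes passed, with 2.94% under that unadjusted p; DESeq2 and the likelihood ratio test called 0 members. Il1rn had 2 counts without and 5 counts with OKN-007 in all, which is under the floor in every mouse. Il1rl1 differed by -0.46 (SE 0.56). In G93A mice at 95 days, 0 of 7 members and 0% of genes passed, and 1 member was under an unadjusted p of 0.05, as were 5.56% of all genes. It was Il1r1, at 4.00, 6.44, 9.77 and 4.89 CPM untreated and 3.57, 3.71, 5.71 and 4.32 CPM with OKN-007, which overlapped. Its log2 difference was -0.55 (SE 0.25, adjusted p = 0.837). Il1rap differed there by 0.20 (SE 0.094), Il1a by 0.30 (SE 0.45) and Il1rn by 0.25 (SE 0.84).

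In WT mice at 95 days, 0 of 7 members and 0% of genes passed, and 2 members were under an unadjusted p of 0.05, as were 4.07% of all genes. These were Il1rap, at 55.1 ± 4.73 CPM untreated and 64.8 ± 4.89 CPM with OKN-007 (SD, n = 4), and Il18, at 20.8 ± 0.509 and 23.9 ± 2.83 CPM. Their log2 differences were 0.24 (SE 0.095) and 0.21 (SE 0.081), with adjusted p-values of 0.993. Il1a differed by 0.91 (SE 0.47) with 6, 16, 4 and 10 counts untreated and 15, 17, 7 and 21 counts with OKN-007. DESeq2 and the likelihood ratio test called 0 members at 95 days in both genotypes.

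Whether the OKN-007 difference depended on genotype was tested as an interaction, in which 0 of 7 members passed at 95 days and 0 of 8 at 155 days, with 0% of all genes at either age. At an unadjusted p under 0.05 there were 1 and 0 members, the 1 being Il1r1 at 95 days (-0.75, SE 0.35, adjusted p = 0.9999), and 2.81% and 2.34% of all genes were under it. The OKN-007 difference in G93A mice did not pass as different between ages for any of 8 members or for any gene (0%). Il1r1 was again the 1 member under an unadjusted p of 0.05 (0.67, SE 0.31, adjusted p = 1), where 2.35% of all genes were. For the members, DESeq2 and the likelihood ratio test called 0 in these 3 tests. The 4 OKN-007 comparisons and their interactions share mice.

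**Figure D3:**
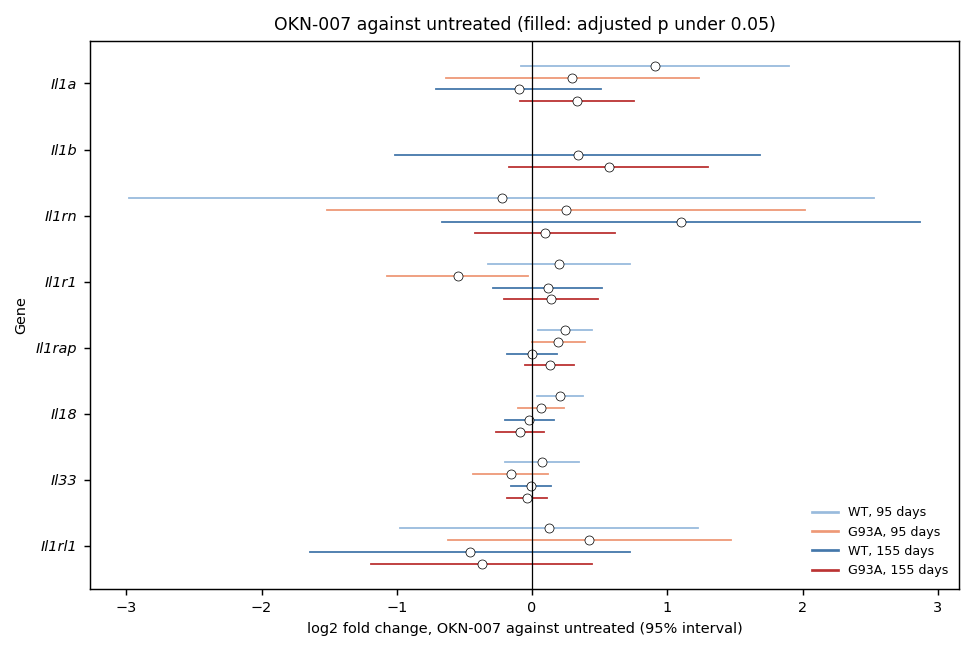
Log2 fold change of OKN-007 against untreated mice for each gene (horizontal axis), by genotype and age; points are edgeR estimates and lines their 95% intervals. No point is filled, since 0 members passed an adjusted p of 0.05, and Il1b has no estimate at 95 days.

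The remaining genes of the pathway were taken from lists that were drawn up with earlier results of these data known. Among the other ligands and antagonists of the family, 4 of 5 genes were in the table and 1 could be tested in untreated mice at 155 days. It was Il1f9 (IL-36 gamma), which fell by 2.41 on the log2 scale (SE 0.82, adjusted p = 0.0253), from 0.267 ± 0.193 to 0.0450 ± 0.0523 CPM (SD, n = 4), a level under the floor. Of the other receptors and binding proteins, 7 of 8 could be tested, 2 were higher and 1 was lower, with a median of 0.08. Over all genes tested in this comparison 21.3% were higher and 18.2% lower, so these counts are near those shares. The receptor of IL-36, Il1rl2, rose by 2.19 (SE 0.29, adjusted p = 8.38e-06), and Il18bp, which neutralizes IL-18, rose by 0.78 (SE 0.18, 0.00221). Il1rapl2, a homologue of the accessory protein, fell by 0.61 (SE 0.21, 0.0304). The decoy receptor Il1r2 had means of 0.334 ± 0.166 CPM in WT and 0.338 ± 0.193 CPM in G93A mice (adjusted p = 0.913).

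Of 17 genes of receptor signalling, 9 were higher and 1 was lower, against 21.3% and 18.2% of all genes, with a median of 0.48. Higher were the kinase gene Irak4 (1.55, SE 0.12, adjusted p = 4.97e-09), the adaptor Myd88 (1.06, SE 0.13, 2.67e-06) and the NF-kB subunit Rela (0.67, SE 0.093, 1.41e-05). Irak3, an inhibitor of the pathway, was higher by 0.65 (SE 0.15, 0.00183). Tab3, which links the kinase TAK1 to its activators, fell by 0.57 (SE 0.11, 0.000435). The list thus held both activators and an inhibitor among the genes that rose.

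Of 9 genes of cytokine processing and release, 8 could be tested and 7 were higher, against 21.3% of all genes, with a median of 1.76. The inflammasome adaptor Pycard rose by 2.80 (SE 0.22, adjusted p = 8.45e-09), Casp4, a caspase that cleaves gasdermin D, by 2.33 (SE 0.29, 3.18e-06), the sensor Nlrp3 by 2.23 (SE 0.22, 1.68e-07) and the pore-forming Gsdmd by 1.78 (SE 0.14, 8.60e-09). Casp1, which cleaves IL-1 beta and IL-18, was at 2.30 ± 0.469 CPM in WT and 7.01 ± 1.69 CPM in G93A mice. Its substrate genes therefore differed: Il1b rose and Il18 did not pass the test.

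Among 11 genes that IL-1 is known to induce, 7 could be tested and 6 were higher, against 21.3% of all genes, with a median of 1.98. The chemokine Ccl2 rose by 4.12 (SE 0.56, adjusted p = 1.20e-05), the adhesion molecule Icam1 by 2.65 (SE 0.19, 2.38e-09) and the ribonuclease gene Zc3h12a by 1.98 (SE 0.29, 3.25e-05). Ccl2 was under the floor in WT mice, at 0.0724 ± 0.0954 CPM (SD, n = 4), so it could hardly be counted as lower. Lcn2 rose by 3.43 (SE 0.83, 0.00273), with a wide spread of 9.92 ± 15.3 CPM in G93A mice. Ptgs2, which encodes an enzyme of prostaglandin synthesis, did not pass (0.14, SE 0.31, adjusted p = 0.747). Il6, Cxcl1, Cxcl2 and Saa3 did not pass the filter on low counts. Other signals induce these genes too, and the list is not a measure of IL-1 signalling. In each genotype and at each age, 0 genes of these 5 lists passed between OKN-007 and untreated mice, and the same was true of G93A against WT at 95 days in the untreated mice. Of all genes, 0% passed in those comparisons.

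**Figure D4:**
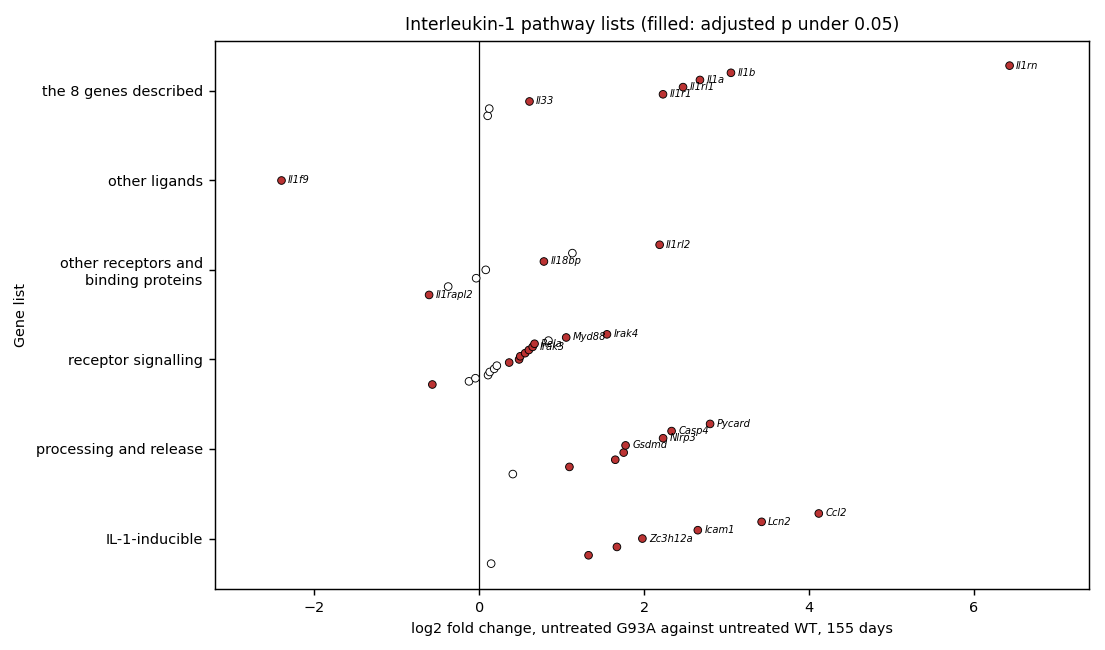
Log2 fold change of untreated G93A against untreated WT mice at 155 days (horizontal axis) for the 8 genes described and for each tested gene of the 5 pathway lists; each point is a gene, filled where the adjusted p was under 0.05. All called members, and in the other lists at most the 4 called genes with the largest change, carry their names. Filled and to the right lie 7 of 8 tested processing genes and 6 of 7 tested IL-1-inducible genes, against 21.3% of all genes tested.

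The genes with the most similar pattern were found by the root mean square difference of log2 CPM over the 8 group means, after centring, among 19738 genes. This is a description over 8 points that share mice and library depth. For Il1a the nearest were Mdfic (0.154), Serpinb1c (0.175) and Nckap1l (0.176), where the SD of its own profile over the groups was 1.20. Il1b was nearest to Serpina3h (0.113), Fgf2 (0.169) and Dkk2 (0.190), and Il1rn to Fosl1 (0.151), Atf3 (0.185) and Ptx3 (0.209). For the receptor genes, Il1r1 was nearest to Sgca (0.0922), Mylk (0.0953) and Angptl4 (0.117), and Il1rl1 to Irf7 (0.149). Il33 was nearest to Atp7b (0.0280), Cxcl14 (0.0466) and Itpkc (0.0469). Il1rap was nearest to Cdk19 (0.0276) and Il18 to Rpl13a (0.0307), but their own profiles varied little, with SDs of 0.172 and 0.204.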

How the data were processed

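Stranded mRNA libraries were made from the spinal cord of 32 mice, 4 in each of 8 groups. Per the labels' processing notes, the submitters named FastQC, STAR, featureCounts and edgeR with the builds GRCm39, mm39 and hg38, whereas the study's methods give Trimmomatic, STAR on GRCm38, HTSeq and GENCODE M10. Of the deposited gene identifiers, 1306 are numbered above the highest of GENCODE M21, so the annotation was newer than M10. The authors deposited raw counts per gene, without normalization, and no gene had a sum under 2 counts. Each column belongs to 1 mouse. Of 42524 identifiers, 41203 (96.9%) were paired with symbols and positions through GENCODE M21 on GRCm38, and all 8 members were among them. Total counts ranged from 19701722 to 30138257, and 3 counts in the smallest library equal 0.152 CPM.

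Counts were tested with edgeR 4.0.16 in R 4.3.3 (filterByExpr, TMM, glmQLFit, glmQLFTest, two-sided, Benjamini-Hochberg over all genes tested), in 1 fit per age (18899 and 18675 genes) and 1 fit of all 32 mice for comparisons between ages (19829 genes). SEs were taken as the absolute log2 fold change over the square root of the F statistic, and 95% intervals were built from them. They can be too narrow for genes with few counts, such as Il1rn in WT mice. Mice of a group are separate animals, and nothing says how litters were spread over groups. Replicates differed beyond sampling noise, by a chi-square of at least 3.80 per gene. The quasi-likelihood test was tried on simulated counts in the layout of untreated G93A against untreated WT mice at 155 days. The alternatives tried were edgeR's likelihood ratio test, DESeq2 1.42.0, RLE factors, no filter on low counts, other sets of mice in the fit, a caudal Hox covariate, a block for the sample number and leaving out each mouse; leaving out 3 libraries high in liver markers was added after seeing the data. The members and lists were chosen with earlier results of these data known. All members are named; from each pathway list, up to 4 genes with the largest change among those past the threshold in untreated mice at 155 days are named. Casp1, Il1r2, Ptgs2, Tab3, Gfap, Trac, Gm14023, Il1bos and the genes below the filter were added after their values were seen.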

Additional observations from a re-analysis of the deposited data

Results flagged for a closer look

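Single mice stood apart from the other 3 of their group by Dixon's test in 3 of 64 combinations of gene and group, where chance gives about 3.2. Il1a was at 1.09 CPM in G93A OKN-007 replicate 15 at 95 days, and the next mouse was at 0.582 CPM. Il1rap was at 45.2 CPM in WT OKN-007 replicate 5 at 155 days, and the next was at 50.7 CPM; the call of Il1rap in OKN-007 mice was lost without it. Il18 was at 14.9 CPM in WT untreated replicate 2 at 155 days, and the next was at 17.8 CPM.

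The G93A change differed between 95 and 155 days by the test of the difference itself. In untreated mice the difference was 1.99 for Il1a, 4.55 for Il1rn, 1.84 for Il1r1, 0.47 for Il33 and 2.26 for Il1rl1 on the log2 scale. In OKN-007 mice it was 3.0 for Il1a, 2.58 for Il1r1, 0.65 for Il33 and 2.02 for Il1rl1. The calls of Il1rn, Il33 and Il1rl1 in untreated mice and of Il1rl1 in OKN-007 mice were lost in some of the alternatives given above. Microglial marker sums in G93A untreated mice were 418 to 618 CPM at 95 days and 1398 to 2465 CPM at 155 days; their part in these differences was not tested.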

How the results depend on the processing

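Over 62 results of single genes, 1090 values were recomputed, of which 1021 kept their direction and side of the threshold, 43 fell below it, 15 rose past it and 11 changed sign. Of 317 recomputed counts of members past the threshold, 304 stayed within 1.5 times the original count. In untreated mice, the count of members whose G93A change grew between the ages was 3 with the caudal Hox covariate in place of 5, and 3 to 5 without 1 mouse. For WT untreated mice across ages the count was 2 by DESeq2, by the likelihood ratio test, with the Hox covariate and with the replicate block, and 0 with no filter, in place of 1, and it was 0 to 2 without 1 mouse. The second gene there was Il33.

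The changes of sign were small and none was past the threshold before or after. With the Hox covariate, Il1rap in untreated mice at 155 days was at -0.041 and Il18 in OKN-007 mice at -0.039; with all 32 mice in 1 fit that Il18 value was -0.00084. For OKN-007 in G93A mice at 95 days, Il1a ranged from -0.014 to 0.68 without 1 mouse (below 0 without replicate 15), and Il1rn from -0.20 to 1.11 (below 0 without replicate 9, 12, 15 or 16). At 155 days, Il1rn ranged from -0.020 (without G93A untreated replicate 12) to 0.21, and without the liver-marker libraries it was at -0.089 and Il1r1 at -0.047. The causes were not tested.

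The sample numbers are shared only between ages, by different mice. Same-numbered mice did not deviate together: over 16 pairs the correlation ran from -0.215 to 0.134, 2 were over 0.1, and 2 mice correlated best with their own number. The numbers therefore do not pair the samples, and the replicate block changed 1 count, given above. No paired analysis was possible within an age because the groups share no number. The levels of Il1b and Il1rn in WT mice are limited by depth.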
